A study of Mus musculus with 3 samples.

Results

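Mouse chromosome 16 was described in ID8 cells through its CCCGGG sites, the recognition sequence of the restriction enzymes SmaI and XmaI. All sites listed on this chromosome were taken, 5715 of the 173449 in the deposited tables, and 652 of them (11.4%) had at least 10 reads in each of 3 libraries and are called covered. Of the 5063 that were not covered, 546 had at least 10 reads summed over the libraries, 2385 had fewer and 2132 had none. The chromosome was chosen by these same levels, since its covered sites had the lowest mean methylation of the 19 autosomes, so its levels are given below as a description, with no test.

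ID8 is a line that arose from mouse ovarian surface epithelial cells; the labels give the strain C57BL/6 and female cells, cultured in serum-containing medium with gentamicin sulfate and without treatment. The 3 libraries form 1 group with no control, and whether they came from separate cultures is not stated. The labelled cell type could not be checked against marker genes, since the assay reads DNA methylation only. The libraries held 7689526, 9190335 and 10361138 reads in replicates 1, 2 and 3, of which 163295, 197148 and 222452 fell on chromosome 16.

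In mammals the cytosine of a CpG can carry a methyl group. Most CpGs of the genome are methylated, whereas CpG-rich promoters and CpG islands are usually free of methylation, and tumour cells can gain methylation at such places. Digital restriction enzyme analysis of methylation (DREAM) cuts DNA first with SmaI, which a methylated CpG blocks, and then with XmaI, which cuts regardless, so each sequenced end tells whether that copy of the site was methylated. The distal part of mouse chromosome 16 carries many counterparts of genes on the human chromosome that is trisomic in Down syndrome.

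To show which genes some sites belong to, promoter sequences from RefSeq (GRCm38.p6) were paired with the listed mm9 sites by the exact spacing of their CCCGGG sequences. CCCGGG reads the same on both strands, and it occurred in 12.9% of the 1078 promoter windows of chromosome 16, each from 250 bases before to 50 after a start, against 13.8% of the 30318 windows of the other autosomes. Of the 21 genes with at least 2 such sequences in a window, 9 had a spacing found at 1 place only among the listed sites of chromosome 16, and these 9 places followed the RefSeq gene order. For 6 further genes the spacing occurred at several places, of which 1 lay between the nearest of these 9 genes on each side. Zfp148 had no such gene before it and was placed only as lying before Heg1. The other 6 genes were not assigned. The pairing was devised after the tables were seen. The promoters of Hunk, Robo2, Ncam2, Cd47 and Heg1 are shown from 250 bases before the start to 15 after it, 5′ to 3′ on the strand of the gene (minus for Robo2, plus for the rest), with CCCGGG in capitals, because they hold the methylated and the unmethylated examples described next and the closely packed sites that were not read.
Hunk: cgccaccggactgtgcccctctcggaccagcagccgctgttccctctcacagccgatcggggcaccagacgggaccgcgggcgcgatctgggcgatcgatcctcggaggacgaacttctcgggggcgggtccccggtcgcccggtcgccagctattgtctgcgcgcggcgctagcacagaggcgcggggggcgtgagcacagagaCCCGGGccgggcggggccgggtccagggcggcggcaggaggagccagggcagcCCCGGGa
Robo2: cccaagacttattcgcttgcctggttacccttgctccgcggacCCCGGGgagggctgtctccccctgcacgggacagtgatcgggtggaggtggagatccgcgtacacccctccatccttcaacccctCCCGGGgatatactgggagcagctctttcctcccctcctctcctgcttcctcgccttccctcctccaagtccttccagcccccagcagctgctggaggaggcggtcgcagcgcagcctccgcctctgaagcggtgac
Ncam2: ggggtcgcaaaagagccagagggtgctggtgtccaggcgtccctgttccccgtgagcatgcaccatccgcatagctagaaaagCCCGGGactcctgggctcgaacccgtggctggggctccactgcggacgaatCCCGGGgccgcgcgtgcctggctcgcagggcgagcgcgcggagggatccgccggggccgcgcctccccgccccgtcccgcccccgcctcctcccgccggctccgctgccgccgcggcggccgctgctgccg
Cd47: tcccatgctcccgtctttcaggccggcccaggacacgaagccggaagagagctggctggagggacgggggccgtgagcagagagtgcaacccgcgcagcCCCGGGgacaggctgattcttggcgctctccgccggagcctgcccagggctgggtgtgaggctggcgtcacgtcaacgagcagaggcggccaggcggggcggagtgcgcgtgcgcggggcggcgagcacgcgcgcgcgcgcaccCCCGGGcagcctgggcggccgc
Heg1: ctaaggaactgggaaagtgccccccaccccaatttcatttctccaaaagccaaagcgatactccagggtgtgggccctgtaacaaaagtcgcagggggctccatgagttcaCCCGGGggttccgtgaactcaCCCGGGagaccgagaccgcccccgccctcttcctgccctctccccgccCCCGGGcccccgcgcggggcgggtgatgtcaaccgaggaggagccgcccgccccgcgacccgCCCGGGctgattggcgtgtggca

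The paired promoters held 36 listed sites of 15 genes, of which 17 sites of 11 genes were covered. Of these, 15 sites of 10 genes were low and at most at 1.59%, and 2 sites, both in the Hunk promoter, were high. The promoters were kept only with at least 2 CCCGGG, so their sites have close neighbours. Of all covered sites with 2 and with 3 to 4 neighbours within 500 bp, 74.8% and 78.4% were low on chromosome 16. On the other autosomes 58.9% and 67.4% were low, so a majority of low sites is not particular to these genes. Hunk encodes a serine/threonine kinase related to the SNF1 family. The Hunk site 45 bases before the start (mm9 chromosome 16, position 90386600) was methylated in 76.5%, 77.1% and 74.7% of reads in replicates 1, 2 and 3, from 323, 520 and 588 reads. The site 8 bases after the start (position 90386653) was at 89.9%, 93.2% and 91.9%, from 642, 701 and 848 reads. Both lay far above every other covered promoter site in each library, a contrast of single loci with no test. They belong to a run of 6 covered sites from 90386331 to 90387139 that averaged 84.6% ± 1.14 (SD, n = 3), where 5 sites were high and the site at 90386997 was at 67.4% ± 2.59.

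Robo2, Cd47 and Ncam2 had promoter sites with few or no methylated reads. Robo2, a receptor for Slit guidance proteins, had 0.338% ± 0.0815 (SD, n = 3) at the site 122 bases before the start. It had no methylated read among 2051 at the site 207 bases before the start, which allows at most 0.146%. Here and below, such a limit is 3 divided by the summed reads, an approximate 95% upper limit and not an absolute one. Cd47, whose protein restrains phagocytosis by macrophages, had no methylated read among 130 and 1696 reads at its sites 151 and 7 bases before the start, which allows at most 2.31% and 0.177%. The Cd47 sites were assigned by spacing together with gene order. In Ncam2, a neural cell adhesion molecule, the site 116 bases before the start (position 81200829) had no methylated read among 380, and the site 167 bases before the start had 1 methylated of only 6 reads. Levels were higher further along, with 1.49% ± 0.156 at 81201054 and 36.8% ± 4.28 at 81201292, where the libraries gave 34.6%, 34.0% and 41.7%.

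Other paired promoters were low as well. Atp5j, a subunit of the mitochondrial ATP synthase, was at 0.0605% ± 0.105 (SD, n = 3), from 1 methylated read of 1479. Pigp, which acts in the synthesis of the GPI anchor of membrane proteins, was at 0.126% ± 0.133 from 2357 reads. The Pigp spacing occurred at 4 places and was assigned with gene order, and a second Pigp promoter was not assigned. The sites of Slc49a4, Tmem39a and Lrrc58 lay between 0% and 1.59%, the latter from 1 methylated read of 50. At the promoter of Heg1, a membrane protein of endothelial and heart development, the site 8 bases before the start had no methylated read among 2131. The sites 139, 118 and 70 bases before the start of Heg1 had 1, 0 and 0 reads in all, so the more crowded part of this promoter was hardly read. In the whole chromosome, 23.1% of the listed sites with 3 to 4 neighbours within 500 bp were covered, the class of the covered Heg1 site. The share was 3.61% with 5 or more neighbours, 44.3% with 1 and 3.80% with none.

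Levels of the chromosome gathered near both ends of the scale. The mean over its 652 covered sites was 39.4%, 39.6% and 39.6% in replicates 1, 2 and 3, a mean of 39.5% ± 0.104 (SD, n = 3), against 43.3% ± 0.166 on the other 18 autosomes. By their mean level, 336 sites (51.5%) were low, meaning under 10%, 80 (12.3%) were partial and 236 (36.2%) were high, meaning 70% or more. The low share was 51.5%, 51.4% and 51.2% in the 3 libraries, the partial share 12.7%, 11.8% and 12.1%, and the high share 35.7%, 36.8% and 36.7%. On the other autosomes together, 45.5% of 22986 sites were low, 15.5% partial and 39.0% high. The surplus lay at the bottom of the scale: 41.3% of the chromosome 16 sites were under 1%, against 35.4% elsewhere, and 3.53% were from 10% to under 30%, against 6.0%.

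Among the 19 autosomes the low share was highest on chromosome 16, followed by chromosome 3 with 50.2% and chromosome 14 with 48.4%, and it was lowest on chromosome 15 with 41.6%. The libraries of chromosome 3 gave 50%, 50.1% and 50.7% and stayed below the 3 values of chromosome 16. The partial share was the lowest too, but its library values overlapped those of chromosome 3, at 12.7%, 12.4% and 12%. It was 3.21 percentage points below the other autosomes, as a signed difference of -3.21, which became -1.05 and the sixth lowest with low under 25% and high from 75%. The high share was not the lowest: chromosome 14 had 35.2%, and chromosome 16 was the third lowest, with library values that overlapped those of chromosome 17. The mean level was the lowest, before chromosome 14 with 40.4% and chromosome 17 with 40.7%. When 50 reads were required in each library, 432 sites of the chromosome remained, their mean was 35.8%, and it was then the fifth lowest of the autosomes. The spread over libraries does not measure the spread over sites, and sites of a chromosome are not replicates, so an order of chromosomes with close values cannot be read as a difference.

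**Figure D1:**
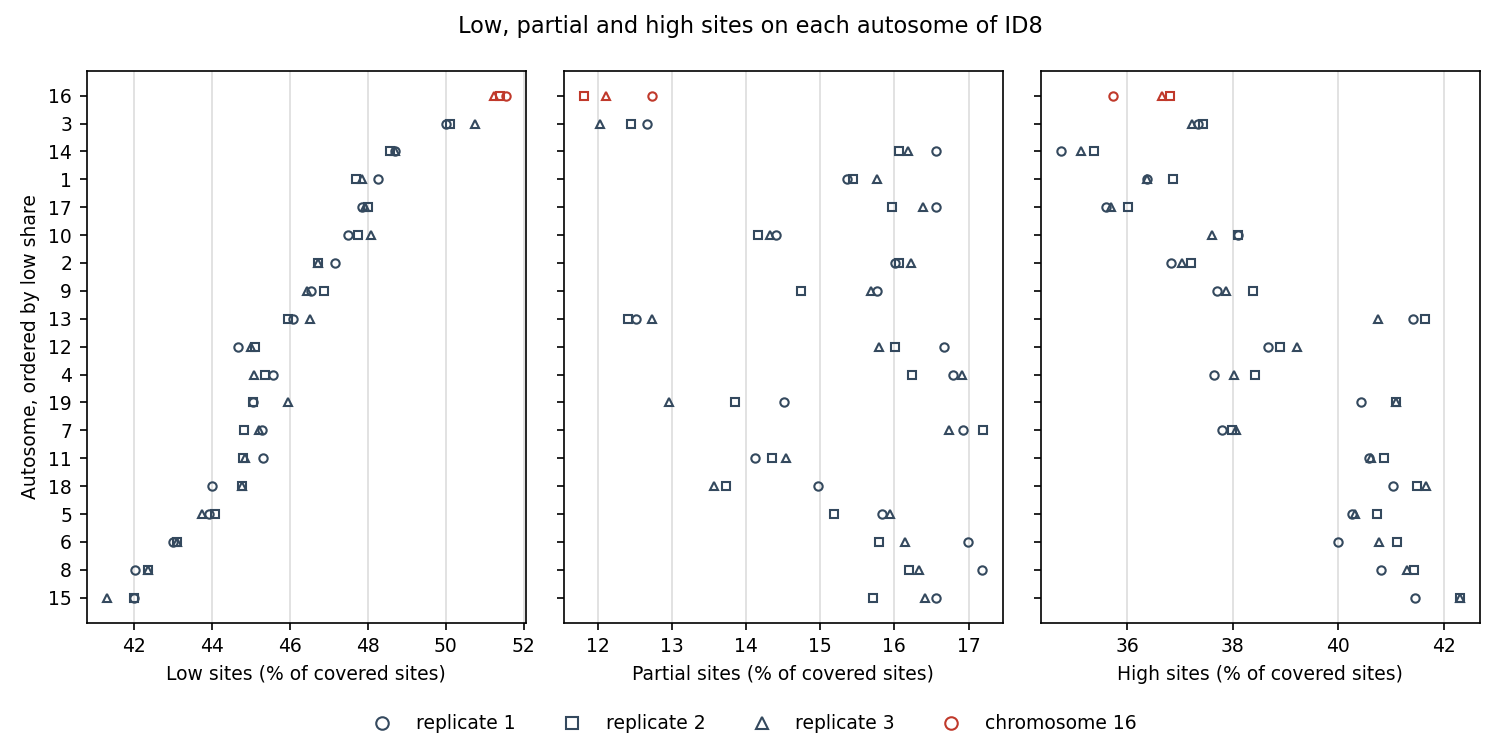
Share of low, partial and high sites (% of covered sites, x axes that do not start at 0) on each autosome (y axis, ordered by low share), with 1 point per library. The points of chromosome 16 lie between 51.2% and 51.5% in the low panel, above all others, while in the high panel chromosome 14 lies lower and chromosome 17 overlaps.

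CCCGGG sites with many close neighbours mark CpG-rich stretches, so the shares were compared at equal numbers of listed neighbours within 500 bp. Shares are by the mean level of each site, and each SD is over the shares of the 3 libraries classed separately. The surplus of low sites was found at sites with 2 to 4 neighbours and not at isolated sites. Sites with close neighbours share places on the chromosome, so they stand for fewer independent places than their counts. The SD over libraries does not measure the spread over these places, and 1 value per run of sites was not taken by neighbour class. With 2 neighbours, 80 of 107 sites on chromosome 16 were low (74.8% ± 0, SD, n = 3), against 58.9% ± 0.0845 on the other autosomes, whose highest was 70.1% on chromosome 3. With 3 to 4 neighbours, 80 of 102 sites were low (78.4% ± 1.13), against 67.4% ± 0.0730, with 77.2% on chromosome 10 as the highest of the others. With 1 neighbour the share was 46.4% ± 0.714 of 280 sites, against 43.5% ± 0.0709, inside the range of the other autosomes from 38.5% to 50.4%. With no neighbour it was 26.1% ± 0.998 of 153 sites, against 27.5% ± 0.221.

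High sites were correspondingly scarce in the same classes. They made up 15% of the sites with 2 neighbours, against 26.6% elsewhere, below the 18.3% of chromosome 19, which was the lowest of the others. With 3 to 4 neighbours they made up 12.7%, against 20.5%, above the 11% of chromosome 12. Isolated sites were high in 59.5% ± 1.36 (SD, n = 3), against 57.0% ± 0.267, and sites with 1 neighbour in 40.0% ± 0.743, against 39.5% ± 0.284. The 10 covered sites with 5 or more neighbours held 6 low and 4 high sites, too few to compare. Mean levels followed: 18.2% ± 0.240 with 2 neighbours and 15.1% ± 0.211 with 3 to 4, against 30.9% ± 0.142 and 23.8% ± 0.114 on the other autosomes, but 63.0% ± 0.170 against 60.9% ± 0.273 at isolated sites.

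**Figure D2:**
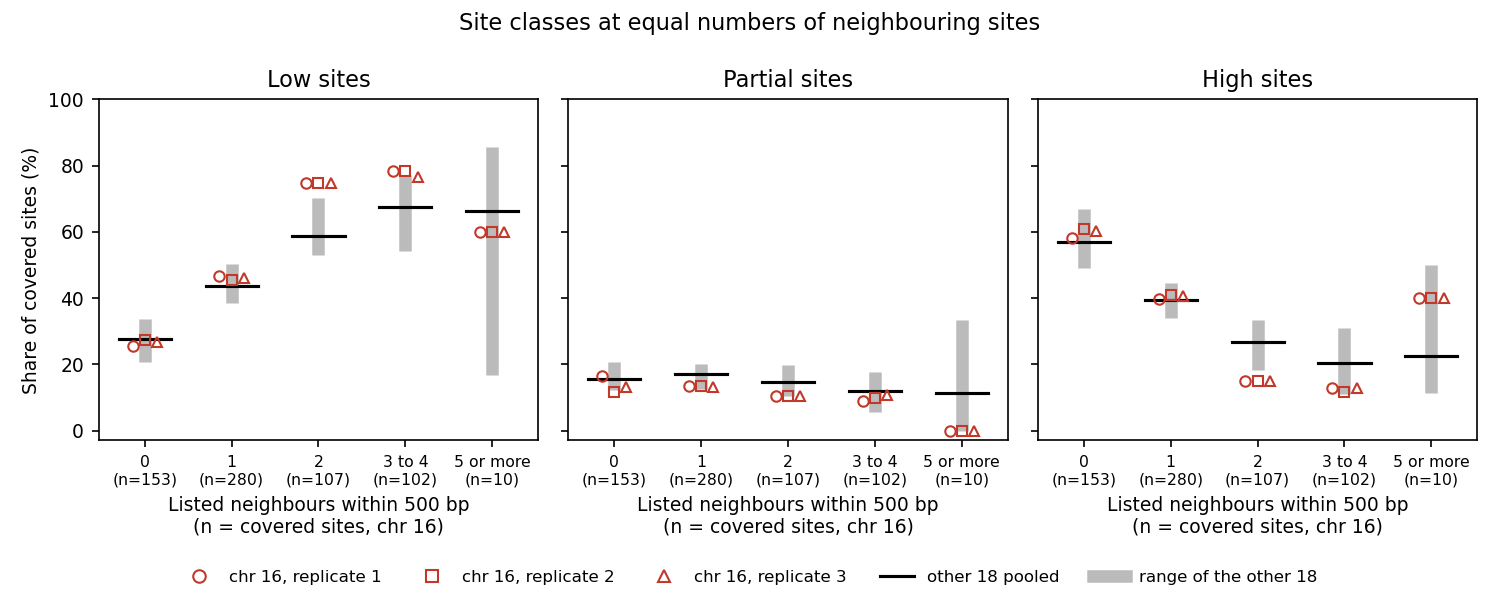
Share of covered sites (%, y axis) that were low, partial or high by the number of listed neighbours within 500 bp (x axis); red points are the 3 libraries of chromosome 16, black lines the other 18 autosomes pooled and grey bars the range of those autosomes. With 2 neighbours, chromosome 16 had 74.8% low sites, above the grey bar that ends at 70.1%, and its isolated sites lie within the bar.

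When every class was given the weight it has on the other autosomes, 50.3% of the chromosome 16 sites were low by their mean level. This was 4.75 percentage points above the other autosomes. With each library classed separately, the difference was 4.68, 4.57 and 4.47 points (SD 0.104, n = 3). The matched difference by mean level was the highest of the 19 autosomes, ahead of chromosome 19 with 3.48 points and chromosome 3 with 2.91. The matched mean level was lower by 2.55 points, as a signed difference of -2.55 ± 0.136, which was only the third lowest after -2.84 on chromosome 17 and -2.72 on chromosome 19. The description as the least methylated autosome therefore holds for the plain mean and the low share of these classes, but not for the mean level at equal neighbours, which was the lowest only by the authors' adjusted percent. The low share was second highest when 50 reads were required or with the other class limits tried. The surplus of low sites was smaller with other class limits: with low under 25% and high from 75% the matched difference was 2.37 points and the fourth highest.

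The sites of chromosome 16 were read less deeply than matched sites elsewhere. The median covered site had 132, 155 and 184.5 reads in replicates 1, 2 and 3, against 160, 188 and 215 on the other autosomes. Each site was set against sites of other autosomes with an equal class and similar spacing on both sides, which was possible for 641 of the 652. The median log2 ratio of reads was -0.20, -0.19 and -0.18 in the 3 libraries, a mean of -0.19 ± 0.00572 (SD, n = 3), or 0.876 times the matched depth. It was below 0 in 3 of 3 libraries, and the exact sign-flip test gave p = 0.25 (two-sided), the smallest that 3 libraries allow. It was the lowest of the 19 autosomes, close to chromosome 9 at -0.18, whose libraries overlapped it, and chromosome 4 at -0.17. Chromosomes 15 and 19 stood at 0.46 and 0.62. Besides these, only chromosomes 5, 6 and 11 were above 0, so a ratio below 0 is not particular to chromosome 16. Single sites of chromosome 16 spread widely around its median, with quartiles at -0.74 and 0.25. Fewer of the listed sites were covered in each neighbour class, with 31.9% against 45.6% of the listed sites with 2 neighbours and 23.1% against 28.4% with 3 to 4. The lower depth did not hold for every neighbour class: without matching, the median of summed reads was 820 against 1096.5 with 2 neighbours, but 1036.5 against 892 with 3 to 4. When depth quartiles were matched as well as neighbours, the low share was 5.85 points above that of the other autosomes.

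**Figure D3:**
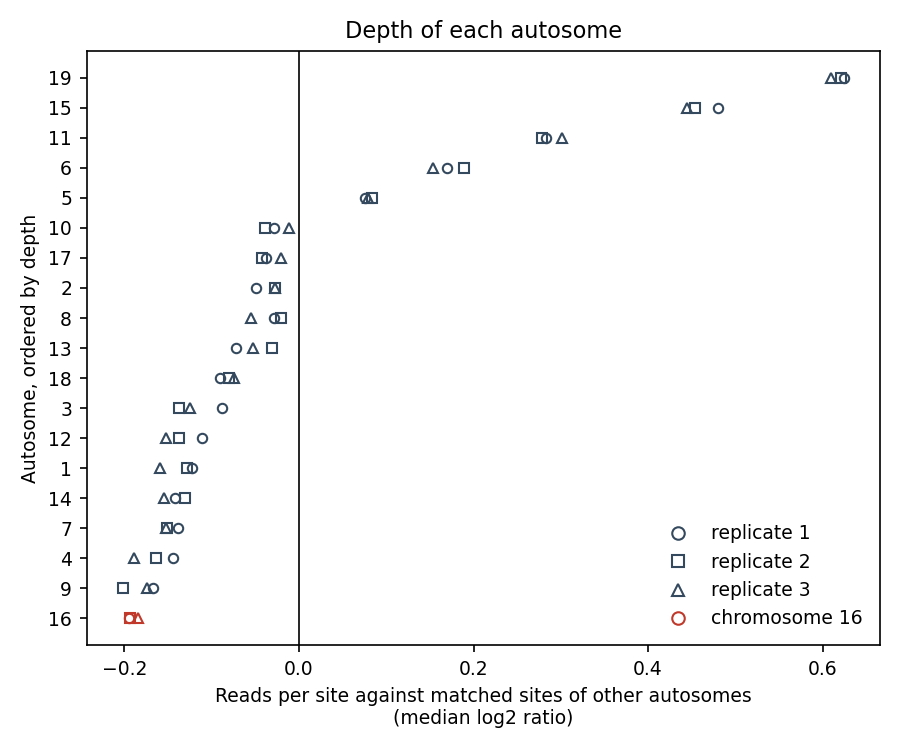
Median log2 ratio of reads per covered site to matched sites of the other autosomes (x axis) for each autosome (y axis, ordered by depth), with 1 point per library. Chromosome 16 is the lowest at -0.20 to -0.18, next to chromosomes 9 and 4, and chromosomes 15 and 19 are the highest.

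Along the chromosome the level was uneven. In windows of 5 Mb, 17 of 20 windows had at least 10 covered sites, and their means spanned 1.14% to 61.6% around a median of 36.1%. This span of 60.5 points was 31.7 when 50 reads were required in each library, and 27.2 in windows of 10 Mb. Lowest was the window from 50 to 55 Mb, at 1.53%, 0.495% and 1.40% in the 3 libraries, where all 11 covered sites were low. It was followed by the window from 0 to 5 Mb, at 17.2%, 17.5% and 16.8% with 20 of 24 sites low, and by that from 75 to 80 Mb, at 21%, 20.8% and 21.2% with 19 of 24 sites low. The highest was the window from 25 to 30 Mb, at 62.0%, 59.9% and 63.0% with 6 of 24 sites low, then those from 85 to 90 Mb (53.1% ± 0.889, SD, n = 3) and from 35 to 40 Mb (49.5% ± 0.467). These windows were picked by the same values, so their separation in each library is no test. The spread over libraries does not measure the spread over their few sites. Set against the level expected from their neighbour classes on the other autosomes, 11 of the 17 windows were lower and the rest higher. Among the higher were the windows from 30 to 35, 35 to 40 and 90 to 95 Mb. They lay 3.63, 10.9 and 6.74 points above it, over 80, 51 and 87 sites, so the low level was not found along the whole chromosome.

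The window from 50 to 55 Mb holds few independent places: its 11 sites lie around 4 spots, and 6 of them between 50528433 and 50529841, of which the 4 from 50529115 to 50529325 averaged 0.0591% ± 0.102 (SD, n = 3). Over the 13 windows with at least 20 covered sites, the means ran from 17.2% to 61.6%. In stretches of 25 Mb the first averaged 34.2% ± 0.0354 over 250 sites and the second 48.8% ± 0.228 over 183. The third averaged 28.0% ± 0.0691 over 52 sites, and the last 41.0% ± 0.182 over 167. Of the sites with 2 to 4 neighbours, 59 of 76 (77.6%) and 40 of 53 (75.5%) were low in the first and second stretch. In the third and last they were 19 of 22 (86.4%) and 42 of 58 (72.4%). The other autosomes pooled had 58.9% and 67.4% at 2 and at 3 to 4 neighbours, but single autosomes reached 70.1% and 77.2%. Not every stretch was above these, and the counts are small. Leaving out any 1 window put the low share of the chromosome between 50.3%, without the first window, and 53.5%, without the window from 90 to 95 Mb.

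Most windows were read less deeply than matched sites elsewhere, 15 of the 17 with at least 10 covered sites. Most autosomes as a whole had this sign too. The shallowest was the window from 95 to 100 Mb, with log2 ratios of -0.58, -1.07 and -0.86 in the 3 libraries, over 28 matched sites and a mean level of 35.8%. The deepest was the almost unmethylated window from 50 to 55 Mb, whose log2 ratios of -0.08, 0.53 and 0.09 had no common sign. The windows from 20 to 25 Mb and from 90 to 95 Mb, with 81 and 87 covered sites the best filled, were at -0.08 ± 0.0183 and -0.03 ± 0.0319 (SD, n = 3).

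**Figure D4:**
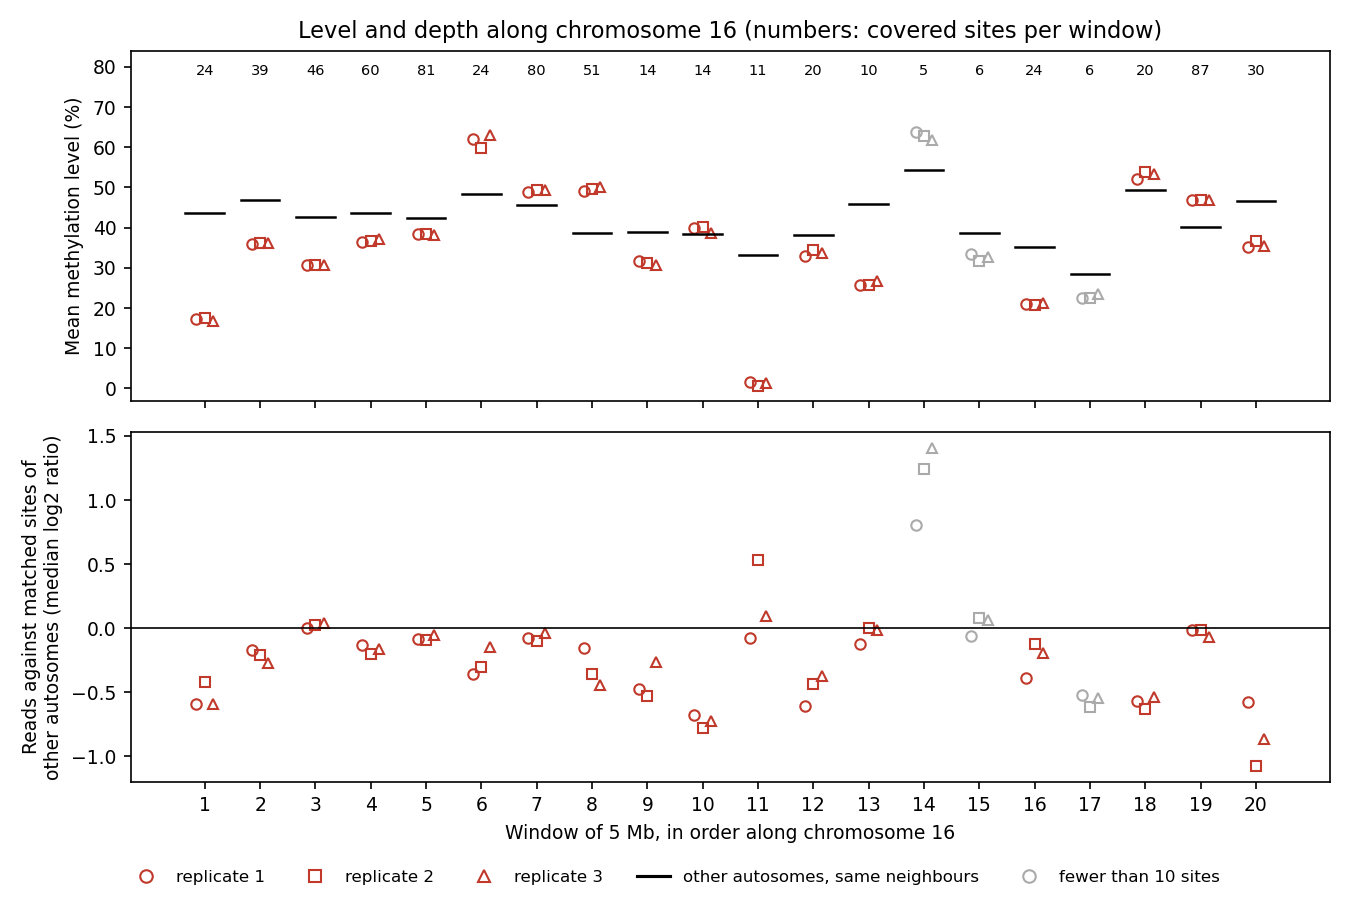
Mean methylation level (%, upper panel) and median log2 ratio of reads to matched sites of other autosomes (lower panel) in the 20 windows of 5 Mb in order along chromosome 16 (x axis), with 1 point per library; grey points are windows with fewer than 10 covered sites, black lines the level expected from the neighbour classes on the other autosomes and numbers the covered sites. The eleventh window is at 1.14% and the sixth at 61.6%.

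Stretches in which each listed site followed the last within 500 bp, and which held 3 or more covered sites, are here called clusters. On chromosome 16 most clusters were uniform. Of its 48 clusters, 29 (60.4%) had every site low, 3 every site high, 2 every site partial, 2 (4.17%) both a low and a high site, and 12 another mixture. On the other autosomes 47.1% of 1661 clusters were low throughout, 11.9% high throughout and 1.38% partial throughout. Low and high sites met in 16.6%, and 22.9% held another mixture, so uniform clusters were the majority there too. The share with both was the lowest of the 19 autosomes, next to 10.2% on chromosome 17, and the share low throughout was exceeded by the 61.2% of chromosome 3. With a gap limit of 1 kb, 8 of 57 clusters (14%) held both, against 21.7% elsewhere, so the scarcity depends on how far a cluster may reach.

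The low clusters with the most reads were close to 0. The deepest, 4 sites from 17927622 to 17928313 with 9322 reads, averaged 1.94% ± 0.128 (SD, n = 3), which rests on its first site at 7.25% ± 0.452, while the other 3 lay between 0.0520% and 0.321%. The 5 sites from 94592087 to 94593148, which begin at the Pigp promoter, averaged 0.141% ± 0.0389. Mean levels of 0.0627% ± 0.0556, 0.288% ± 0.188 and 0.451% ± 0.184 were found for those beginning at 32430627, 32332509 and 17451850. The 3 sites from 49855626 to 49856385 at Cd47 had no methylated read in any library.

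The 3 clusters that were high throughout lay apart from each other. The deepest, with 4 sites from 57627286 to 57628285 and 7989 reads, averaged 93.0% ± 0.985 (SD, n = 3), between 83.4% and 100%. The cluster from 21694216 to 21695042 averaged 85.4% ± 0.785, and its sites stood at 75.3%, 82.6% and 98.4%. The cluster from 35660144 to 35660659 averaged 93.0% ± 1.42.

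A single unmethylated site stood inside the largest mixed cluster. From 35155151 to 35156713, 7 of the 8 sites lay between 74.2% and 98.8%, and the site at 35156323 was at 1.27% ± 1.28 (SD, n = 3) over 261 reads. Its neighbours at 35156065 and 35156573 were at 93.4% ± 0.867 and 90% ± 1.11. The other cluster with both kinds went from 8.06% ± 0.812 at 92644556, with only 61 reads, to 97.3% ± 0.485 at 92644920.

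The 2 partial clusters held middle levels in all libraries. The 3 sites from 15085055 to 15085601 were at 65.9% ± 2.59, 57.9% ± 1.97 and 35.1% ± 1.90 (SD, n = 3) over 8632 reads. Those from 97578164 to 97578518 were at 38.0% ± 7.07, 35.1% ± 1.59 and 55.4% ± 1.57 over 4141 reads. With the adjusted percent that the authors deposited, which raises all middle levels, these clusters averaged 66.6% and 57.5%.

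**Figure D5:**
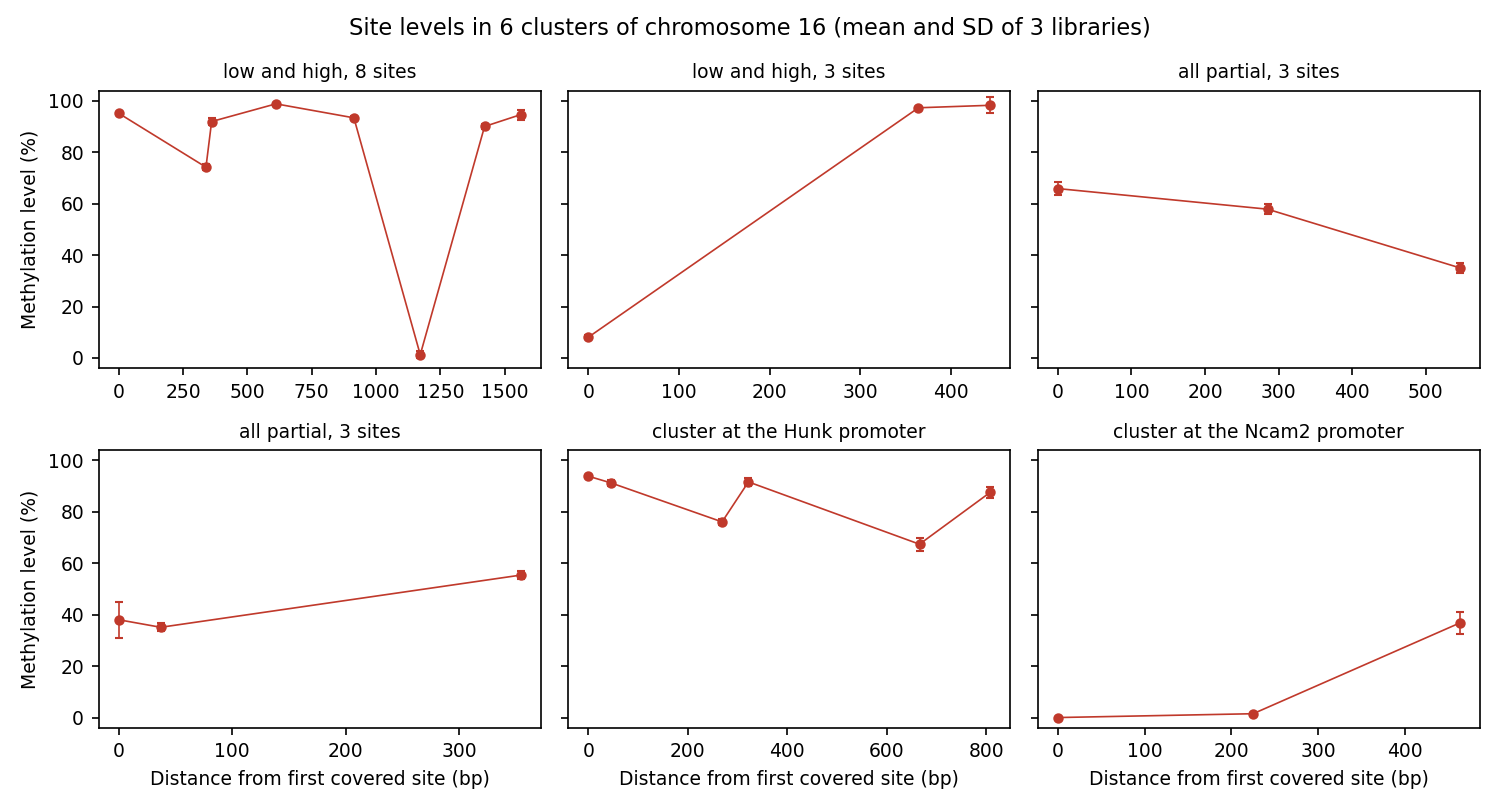
Methylation level (%, y axis) of each covered site against its distance from the first covered site of the cluster (bp, x axis) in 6 clusters of chromosome 16; points are means and bars the SD of 3 libraries. The 8-site cluster drops to 1.27% at a single site, the Hunk cluster stays at or above 67.4%, and the Ncam2 cluster rises from 0% to 36.8%.

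Close neighbours on chromosome 16 were alike. Over 19 pairs of successive covered sites within 100 bp, the mean difference was 3.18 percentage points ± 0.547 (SD, n = 3), against 17.7 ± 0.193 over 594 pairs of the other autosomes. From 100 to 250 bp the difference was 10.9 ± 0.0300 over 121 pairs, against 16.7 ± 0.0813. From 250 to 500 bp it was 21.5 ± 0.299, against 24.2 ± 0.0614, and a low site stood beside a high one in 13.3% of pairs, against 13.1%. Over 100 kb it was 44.6 ± 0.446, against 48.4 ± 0.0359. The 19 closest pairs are few, and they share their places on the chromosome. Of the sites with 2 and with 3 to 4 neighbours, 74.8% and 78.4% were low, against 58.9% and 67.4% on the other autosomes. Neighbours that are both low differ little by definition, so the smaller differences are no trait separate from the low share. Whether they go beyond it was not tested, and no range over single autosomes was taken for these pairs.

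The classes of chromosome 16 resembled those elsewhere in depth order and in repeatability. Low sites had a median of 573 summed reads, partial sites 379.5 and high sites 280, against 813, 587 and 345 on the other autosomes. Of the low sites, 130 (38.7%) had no methylated read in any library, against 33.3% elsewhere, and 55 high sites (23.3%) had no unmethylated read, against 24.3%. The class was the same in each library for 97.0% of the low, 82.5% of the partial and 97.0% of the high sites. On the other autosomes it was the same for 96.8%, 82.3% and 96.6%.

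Few sites of chromosome 16 differed between libraries, with shares near those over all covered sites. A site was called where a two-sided Fisher's exact test, adjusted after Benjamini-Hochberg over all 24112 covered sites, gave an adjusted p under 0.05 and the levels were 20 percentage points or more apart. Of the 652 sites of chromosome 16, 0 were called for any pair of libraries. Among all covered sites the share called was 0.00415% for replicates 1 and 2, 0.00415% for replicates 1 and 3, and 0% for replicates 2 and 3. For the same pairs, 16, 20 and 18 sites of chromosome 16 had an unadjusted p under 0.05, or 2.45%, 3.07% and 2.76%, near the 3.02%, 3% and 2.84% of all covered sites. With the chi-square test as the other method, 0 sites were called too. The median difference per site was 0.356, 0.342 and 0.285 percentage points for the same pairs. Where at least 5 reads of each kind were expected in both libraries, the chi-square statistic with 1 degree of freedom averaged 1.28, 1.44 and 1.26 over 162, 169 and 169 sites, above the 1 that counting error alone gives, against 1.39, 1.36 and 1.31 on the other autosomes.

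With the adjusted p alone, 1, 0 and 0 sites of chromosome 16 were called for these pairs, where the share of all covered sites was 0.0415%, 0.0373% and 0.0249%. The 1 site lay at 18348999. There, 55 of 508 reads were methylated in replicate 1 (10.8%, with an exact Clopper-Pearson 95% interval of 8.26% to 13.9%). Replicate 2 had 134 of 673 (19.9%, 17.0% to 23.1%) and replicate 3 had 145 of 786 (18.4%, 15.8% to 21.3%), and the adjusted Fisher's exact p for replicates 1 and 2 was 0.0492. Replicate 1 was the low one, and the intervals of replicates 2 and 3 overlapped. The next smallest p was at 17500394, an isolated site with 28, 19 and 25 reads, at 50%, 94.7% and 80% (adjusted exact p = 0.456). The sites at 21938851, 35177942 and 90291576 differed by at most 6.33 points between any pair. The deepest site, at 8829766, had 0 methylated reads of 4700, which allows at most 0.0638%. These intervals and limits cover counting error only, since copies of the same molecule could not be recognised.

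Few sites lay close to the class limits. Just under 10% were the sites at 27389842 (9.97%, from 46 reads), 46496594 (9.27%) and 35631118 (8.60%), and just above it those at 38273113 (12.2%), 91140483 (12.2%) and 90629034 (12.3%). Just under 70% were 9993918 (69.8%), 17646282 (69.0%) and the Hunk cluster site 90386997 (67.4%), and just above it 30206874 (70.7%), 93307010 (71.3%) and 29876401 (71.6%).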

How the data were processed

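DREAM libraries of untreated ID8 cells were analysed as 1 group of 3. Per the labels' protocols, DNA with spiked methylation standards was cut by SmaI and then XmaI and sequenced on an Illumina instrument; per the submitters' processing notes, Bowtie2, SAMtools and the builds mm9 and rn4 were used, with versions not given in the sources used here. The authors deposited counts of methylated, unmethylated and total reads per CCCGGG site, not normalized, and 2 percent columns, a raw percent and one adjusted by an odds factor of 2.02, 1.81 and 1.73 in replicates 1, 2 and 3. Positions are those of the files, whose site names give mm9.

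The level of a site is the methylated share of its reads, as the mean and SD of 3 libraries. Shares of sites are by mean level, and their SD is over the libraries classed separately. Whether samples are separate cultures is not stated, so p-values may measure technical spread only. Shares at equal neighbours were weighted to the neighbour classes of the other 18 autosomes. Depth was matched on class and distances, with at least 20 reference sites. Python 3.11.15 and scipy 1.17.1 were used, and the steps were tested on simulated data. Alternatives covered read minimums, class limits, neighbour distance, matching, the adjusted percent and left-out libraries.

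Members and lists were chosen with earlier results of these data known. Named sites were the 5 with the smallest p between libraries, the deepest, and the 3 on each side of each class limit; named clusters were the 5 with the most reads (or, with low and high sites, the most sites) of each kind, and named windows the 3 lowest, 3 highest, deepest and shallowest. The Hunk, Ncam2 and Cd47 clusters, the windows from 20 to 25 Mb and from 90 to 95 Mb, and the promoters were chosen after their values were seen. Planned gene lists needed annotation on mm9 and were not used here. Promoter sequences are from RefSeq.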

Additional observations from a re-analysis of the deposited data

Results flagged for a closer look

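Reads were also counted on chromosome 16 outside the covered sites. In the authors' table of the 3 libraries summed, 546 sites of the chromosome had at least 10 reads but fewer than 10 in some library. Their median was 15 reads, and they were mostly methylated: 63.9% were high, 17.4% partial and 18.7% low, against 60.7%, 19.8% and 19.6% of 21432 such sites on the other autosomes. Their mean level of 68.0% was not below the 65.3% of those autosomes. These are values of pooled reads, with no spread over libraries.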

How the results depend on the processing

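The low share on chromosome 16 exceeded that of the other autosomes by 6.01 percentage points, and the sign was the same under all alternatives run: 5.81, 5.43 and 4.99 points with minimums of 5, 20 and 50 reads, 6.48 by the adjusted percent, 4.26 and 3.68 with class limits of 20% and 80% or 25% and 75%, and 5.87 to 6.08 without single replicates. Added after the data were seen, 1 value per run of sites gave 7.05, and leaving out a window gave 4.80 without the first and 7.93 without the window from 90 to 95 Mb. At equal neighbours the difference of 4.75 became 3.41, 3.96 and 3.38 with those minimums, 5.24 by the adjusted percent, 3.02 and 2.37 with those class limits, 5.14 with neighbours within 1 kb, 5.85 with depth matched too, 5.75 matched on distances, and 4.37 to 4.60 without single replicates. The low share was the highest of 19 autosomes in 6 of 9 alternatives and second in the others, and at equal neighbours in 5 of 9, with rank 4 at worst. The partial share was the lowest in 3 of 9, with rank 6 at worst, and the mean level in 8 of 9, or in 1 of 9 at equal neighbours. The high share at equal neighbours, lower by 1.59 points, was higher by 0.454 with a minimum of 50 reads. The count of sites differing between libraries went from 0 to 1 without the minimum difference. Depth kept its sign, from -0.27 to -0.17. The gap between the highest and lowest window, 60.5 points, was 43.8, 47.5 and 31.7 with the 3 minimums, 62.7 by the adjusted percent, 27.2 in windows of 10 Mb, and 45.2 to 61.0 without single replicates. The clusters low throughout, 60.4%, were 53.7%, 64.1% and 58.6% with those minimums, 56.25% by the adjusted percent, 72.0% and 56.1% with gap limits of 250 bp and 1 kb, and 59.2% to 61.2% without single replicates. Adjacent sites up to 500 bp apart differed by 14.7 points, and by 16, 13.9 and 13.8 with those minimums, 14.4 by the adjusted percent, and 14.6 to 15.3 without single replicates. The cause of these shifts was not tested, and read minimums and left-out libraries also change which sites are counted. No paired analysis was possible because there is 1 group.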

Other observations

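Promoters paired by spacing, or for Zfp148, Pros1 and Usp25 by spacing with gene order, but too thinly read to be covered are given as summed counts. At Dyrk1a, a kinase gene of the distal part of the chromosome, the sites 228 and 138 bases before the start had 0 methylated reads of 8 and 0 of 15. At Zfp148, a zinc finger transcription factor, the sites 247 and 140 bases before the start had 0 of 23 and 0 of 28. At Pros1, the anticoagulant protein S, the sites 60 bases before and 37 after the start had 5 of 9 and 1 of 1 methylated reads. Usp25, a deubiquitinase, had 2 reads at 1 of its sites and 0 at the other.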
